A study of Homo sapiens with 2 samples.

Results

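A group of 10 genes of the insulin-like growth factor (IGF) system were examined in A549 cells, a human lung carcinoma line, that were left untreated or received TGF-β at 1 ng/ml during 12 h of culture. They were IGFL1, the IGF-binding proteins IGFBP1, IGFBP2, IGFBP3, IGFBP4, IGFBP5, IGFBP6 and IGFBP7, and the receptors IGF1R and IGF2R. Members were taken by gene symbol, so all probe sets annotated to one of these symbols alone were used, and the 10 genes, of 19775 named genes on the array, carried 25 of the 54613 probe sets that are not controls. Total RNA of each condition was hybridized to 1 Affymetrix array, so the precision is limited by the number of arrays, and every difference is that between 2 single arrays, without replicates and without a p-value. The cells of both groups came from the same line and differed, as far as the labels say, only in the cytokine.

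IGF1 and IGF2 are secreted growth factors that signal through the tyrosine kinase IGF1R. Most IGF in extracellular fluid is held by IGF-binding proteins, which carry the ligand, keep it from its receptor, or release it after proteolysis, and several of them also bind matrix or cell surfaces. IGF2R carries no kinase. It removes IGF2 from the cell surface and sorts lysosomal enzymes that bear mannose 6-phosphate. IGFL1 is a small secreted protein of the separate IGF-like family.

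Values are MAS5 signals, which are intensities on a linear scale with 1 value per probe set. A signal was taken as background when it was no higher than the highest of 27 probe sets for Bacillus subtilis transcripts, which was 45.8 for the control and 56.6 for TGF-β. A gene was represented by its brightest probe set with a mean signal of at least 48.7, the median over probe sets, and each of the 10 genes had such a probe set, as did 12375 genes in all. A gene was called when its signals differed by 2-fold or more, which judges size alone and tests nothing. The spread given beside a log2 fold change is a robust SD, scaled from the median absolute deviation, over the 500 probe sets closest to it in signal, so it describes probe sets of these arrays, and the variation between cultures is unknown. Signals of different probe sets depend on the probes, so they were not set against each other as levels.

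Both arrays had a trimmed mean signal of 500.1. Of 5 epithelial markers KRT8, KRT18, KRT19, EPCAM and CDH1, all were measured above background on both arrays, with a median log2 fold change of -0.43. CDH1 was called lower, at 2.31-fold. KRT19 was 1.51-fold and EPCAM 1.35-fold lower, and KRT8 and KRT18 were 1.17-fold and 1.13-fold higher, none of them called. Of 14 markers of fibroblasts, endothelium and immune cells, 4 had a probe set bright enough to be kept. Among these, THY1 read 82.5 and then 21.8, which is at background and so at least 1.46-fold lower, CD14 was 3.02-fold lower, and PECAM1 and CD3E differed by less than 2-fold. DCN, LUM, PDGFRA, PDGFRB, COL3A1, VWF, CDH5, KDR and PTPRC had no kept probe set, and CD68 none with its symbol alone. Their part in the results was not tested. Of 4 measured genes known to respond to TGF-β, SMAD7, PMEPA1 and COL1A1 were at least 2-fold higher in the array labelled TGF-β, and TGFBI read 29261 and 37869. COL1A1 was also drawn from these arrays by the study, so it is not an independent check of the labels.

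The promoters of 8 of the 10 genes were found in the RefSeq table of the assembly GRCh38.p14. Those of IGFBP1 and IGFBP7 were not in the table. The sequences given are those of the 2 genes called higher, IGFL1 and IGFBP5, and of IGF2R, whose signal differed least. Each runs from 250 bases before to 50 bases after the annotated start site, 5′ to 3′ on the gene's strand, and capitals mark AGAC, the core of the Smad binding element, and the GC box GGGCGG, on either strand.
IGFL1, chr19:46229492-46229791, plus strand: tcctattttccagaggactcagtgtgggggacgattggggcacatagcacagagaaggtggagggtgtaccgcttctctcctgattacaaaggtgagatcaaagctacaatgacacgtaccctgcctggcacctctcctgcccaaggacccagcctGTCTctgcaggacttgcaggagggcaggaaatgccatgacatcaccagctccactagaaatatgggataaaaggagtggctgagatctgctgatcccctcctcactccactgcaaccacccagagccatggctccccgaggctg
IGFBP5, chr2:216695500-216695799, minus strand: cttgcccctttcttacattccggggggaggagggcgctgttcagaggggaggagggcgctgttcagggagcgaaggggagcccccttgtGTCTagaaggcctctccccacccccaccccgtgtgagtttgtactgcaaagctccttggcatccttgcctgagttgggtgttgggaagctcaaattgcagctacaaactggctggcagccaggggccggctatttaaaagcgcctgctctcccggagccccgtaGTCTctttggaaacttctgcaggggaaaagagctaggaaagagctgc
IGF2R, chr6:159968832-159969131, plus strand: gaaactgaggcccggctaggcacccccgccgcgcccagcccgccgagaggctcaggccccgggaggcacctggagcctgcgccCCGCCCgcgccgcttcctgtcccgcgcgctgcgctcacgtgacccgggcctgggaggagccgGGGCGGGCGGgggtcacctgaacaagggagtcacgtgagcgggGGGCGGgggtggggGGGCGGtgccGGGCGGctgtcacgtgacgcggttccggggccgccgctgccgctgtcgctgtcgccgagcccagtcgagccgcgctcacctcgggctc
AGAC occurred once in the IGFL1 promoter, at position -94, in the reverse orientation. IGFBP5 held 2 copies, beginning at positions -161 and 4, and IGF2R none. Over the 35116 promoters of the table, 84.0% held AGAC at least once. CAGAC, which contains AGAC, was in none of the 3 sequences and in 45.3% of all promoters. The AP-1 site TGANTCA was in none of the members' promoters and in 7.71% of all. GGGCGG was in 45.0% of all promoters. IGF2R held 6 copies while IGFL1 and IGFBP5 held none. IGFBP3, IGFBP4, IGFBP6 and IGF1R held 2, 2, 1 and 2 copies of GGGCGG, and the IGFBP2 promoters 1, 1 and 0. No link between these counts and the folds was tested. IGFBP3, IGFBP6 and IGF1R had 2, 1 and 3 copies of AGAC, and IGFBP4 had none. The 3 promoters listed for IGFBP2 had 6, 1 and 3. A match describes the letters of a window and not a bound site.

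After 12 h with TGF-β, 2 of the 10 genes were called higher, IGFL1 and IGFBP5, and 1 was called lower, IGFBP1. IGFBP7 read just under 2-fold higher by its brightest probe set. By their brightest probe sets, the other 6 genes differed by less than 1.5-fold. Of all 12375 genes, 3.94% were called higher and 2.96% were called lower. The median log2 fold change was 0.23 over the 10 genes and -0.03 over all genes. Of the 10 genes 7 were above 0, as were 5621 of all 12375. Those 7 include IGF2R and IGFBP2, at 0.00 and 0.07, well within their spreads of 0.27 and 0.31. Among the 7 binding proteins the median was 0.07, and the values lay between -1.27 and 1.01, so the family did not move in a single direction. In RNA of a whole culture, fewer cells that express a gene and less RNA of that gene per cell cannot be told apart.

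**Figure D1:**
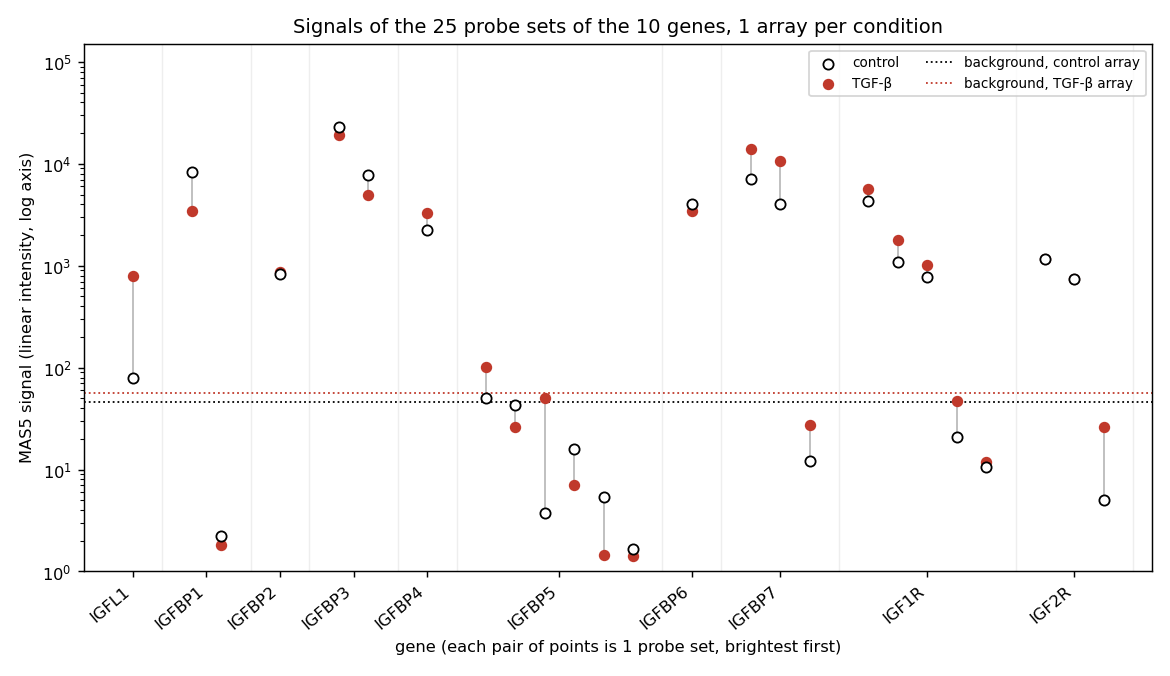
Signals of all 25 probe sets of the 10 genes in the control (open points) and after TGF-β (red points). The y axis is the MAS5 intensity on a log scale, each point is from 1 array, and dotted lines show where background ends (black, control, 45.8; red, TGF-β, 56.6). The IGFL1 pair spans 79.3 to 792, IGFBP1 is lower and both bright IGFBP7 pairs are higher with TGF-β, and the IGF2R pairs above background coincide.

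IGFL1 showed the widest difference among the 10 genes. Its only probe set read 79.3 in untreated cells and 792 with TGF-β. The untreated signal lay above the background of its array, so the ratio of 9.98 needs no bound. The log2 fold change was 3.32, against a spread of 0.42 at the mean log2 signal of the 2 arrays. The untreated signal is dimmer than that mean, and at the dimmer IGFBP5 probe set the spread was 0.63. Among the 11513 genes with both signals above background, this rise ranked 6. With 50 added to every signal, the rise was 6.51-fold.

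Among the other secreted ligands, IGFL2, a paralog of IGFL1, read 58.8 in untreated cells and 111 with TGF-β, which is 1.90-fold higher and not called. The receptor reported for IGFL1, IGFLR1, went the other way. It read 778 without TGF-β and 419 with it, 1.86-fold lower and also short of the 2-fold rule. IGF1 had 5 probe sets and insulin (INS) 1, and none was bright enough to be kept. The brightest IGF1 probe set read 52.6 and 31.7. IGF2 had no probe set with its symbol alone. The brightest of 3 probe sets annotated to both INS-IGF2 and IGF2, which was assigned to neither, read 41.8 (background) and 95.3. The signal with TGF-β was above the background of its array, 56.6, so this probe set was higher, and no fold was called for it. No probe set carried the symbol IGFL3 or IGFL4 in the annotation used, so neither gene was measured.

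IGFBP1, a secreted IGF carrier whose transcription in liver is suppressed by insulin, was the only one of the 10 genes called lower. Its bright probe set read 8300 in untreated cells and 3432 with TGF-β. The fall was 2.42-fold, with a log2 fold change of -1.27 and a spread of 0.19. It ranked 57 among falls of genes with both signals above background. The second IGFBP1 probe set read 2.21 and 1.82, at background on both arrays, and carries no information on the change.

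IGFBP3, the main IGF carrier of serum, lies next to IGFBP1 on chromosome 7, with no gene between them in RefSeq. Its brightest probe set read 22927 without TGF-β and 19268 with it, 1.19-fold lower. The other read 7747 and 4952, 1.56-fold lower. Both differences went the same way, neither reached 2-fold, and the log2 fold changes of -0.25 and -0.65 were larger than the spreads of 0.11 and 0.18. Names of both probe sets end in _s_at, which marks probes that can match several transcripts.

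IGFBP7, a secreted protein of the matrix that binds IGFs weakly, was higher by both of its probe sets above background. The brightest read 7141 in untreated cells and 13850 with TGF-β, 1.94-fold higher. The other read 4073 and 10635, a rise of 2.61-fold, which passed the rule. The log2 fold changes of 0.96 and 1.38 compare with spreads of 0.17 and 0.18. The dimmest probe set was at background on both arrays. Whether IGFBP7 passed 2-fold therefore depended on the probe set and on the scaling. It passed by the median over probe sets, without the probe sets marked as sharing targets, and, with a log2 fold change of 1.00, when arrays were brought to equal medians.

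At 1.5-fold in place of 2-fold, IGFBP7 joined IGFL1 and IGFBP5 on the higher side, and IGFBP1 was still the only one lower. At that size 9.16% of all genes were called higher and 9.08% were called lower.

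The call of IGFBP5 rested on dim signals. IGFBP5 is a binding protein that also attaches to extracellular matrix. Of its 6 probe sets only 1 was above background on both arrays, and it read 50.1 in the control, just over the background of 45.8, and 101 with TGF-β. The ratio of 2.01 was at the limit of the rule, and the log2 fold change of 1.01 compares with a spread of 0.63. The other 5 were at background on both arrays, from 1.42 to 50.7, and did not share a direction. With 50 added to every signal the log2 fold change was 0.59. IGFBP2, which lies next to IGFBP5 on chromosome 2 with no annotated gene between, had a single probe set that read 829 without TGF-β and 873 with it, a ratio of 1.05.

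IGFBP4, an inhibitor of IGF action that is cleaved by the protease PAPPA, read 2265 in untreated cells and 3305 with TGF-β. This is 1.46-fold higher, with a log2 fold change of 0.55 and a spread of 0.27. IGFBP6, which prefers IGF2 as its ligand, read 4051 and 3448, 1.17-fold lower, a log2 difference of -0.23 against a spread of 0.21. Both genes stayed under 2-fold in every setting tried. Each has 1 kept probe set, so only the offset and the scalings could change its value.

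**Figure D2:**
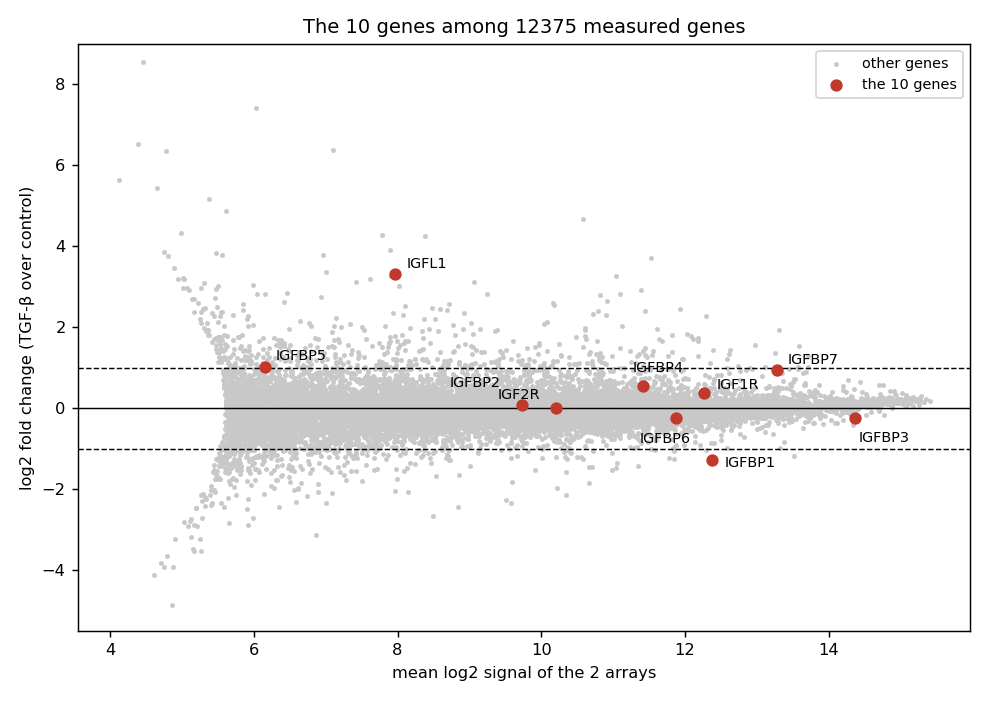
Log2 fold change (TGF-β over control) against the mean log2 signal of both arrays for 12375 genes, each a point, with the 10 genes in red and dashed lines at 2-fold. IGFL1 lies far above the band of genes of like brightness and IGFBP1 below it. IGFBP7 lies above the band, just short of the 2-fold line, while IGF2R and IGFBP2 lie near 0.

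IGF1R, the receptor kinase for both IGFs, was higher by all 3 of its probe sets above background, though none reached 2-fold. The brightest read 4296 in untreated cells and 5603 with TGF-β, 1.30-fold higher. The next read 1091 and 1804, 1.65-fold higher, and the dimmest of the 3 read 770 and 1021, 1.33-fold higher. Log2 fold changes of 0.38, 0.73 and 0.41 compare with spreads of 0.22, 0.29 and 0.30. The 2 remaining probe sets were at background.

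IGF2R showed the least difference of the 10 genes. Its 2 bright probe sets read 1174 and 1176, and 741 and 748, control first, so the ratios were 1.00 and 1.01. The remaining probe set was at background. The related insulin receptor INSR read 241 in untreated cells and 162 with TGF-β, 1.48-fold lower, and its other 3 kept probe sets were between 1.06-fold and 1.27-fold lower. TMEM219, a membrane protein described as a receptor for IGFBP3, read 1150 and 1160. INSRR and LRP1 were too dim to be kept.

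**Figure D3:**
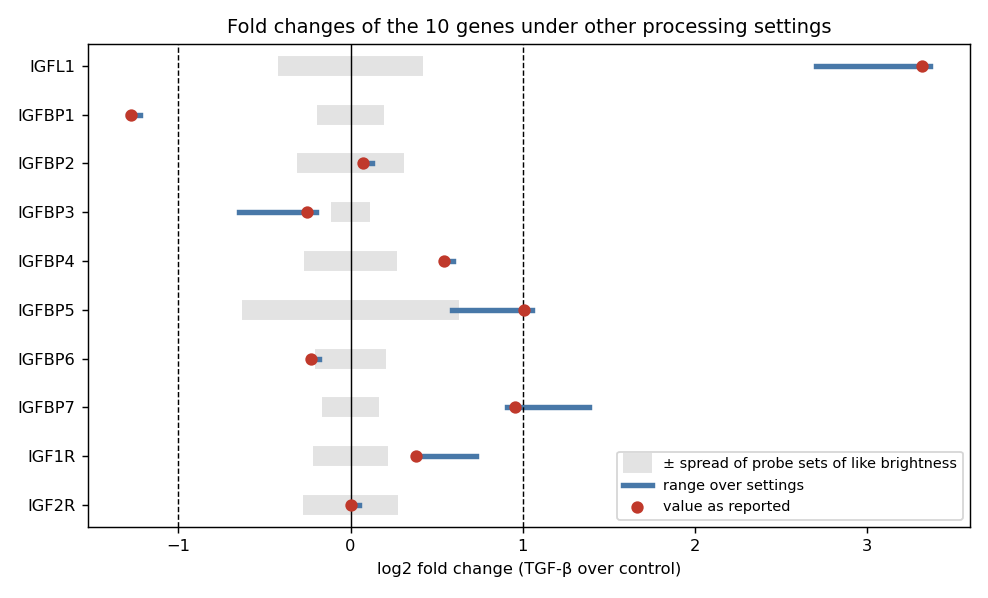
Log2 fold change (TGF-β over control) of each gene as reported (red), its range over the processing settings tried (blue) and the spread of probe sets of like brightness on either side of 0 (grey), with dashed lines at 2-fold. IGFL1 and IGFBP1 stay outside the 2-fold lines in every setting, of which only the offset and the scalings could move them. IGFBP7 and IGFBP5 straddle the upper line, and IGF2R and IGFBP2 lie within the grey band.

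A wider set of 66 genes of the IGF system was listed by role, and 47 of them were measured. Of these, 4 were called higher, 2 were called lower and 41 were neither, against 3.94% and 2.96% of all genes. The median log2 fold change was 0.11.

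Downstream of the receptors, 12 of 13 adaptors were measured, with 1 called in each direction. GRB10, which binds the activated IGF1 and insulin receptors and restrains their signalling, read 2612 without TGF-β and 8297 with it, a rise of 3.18-fold. Other probe sets of GRB10 rose by 2.87-fold and 2.08-fold, and its dimmest went from background to 88.3, at least 1.93-fold higher. IRS2, a docking protein for both receptors, read 7203 and 3495, a fall of 2.06-fold, and its other probe set was 1.73-fold lower. IRS2 was not called by the median over probe sets or after scaling to equal medians. IRS1, the related docking protein, read 1911 and 1739, and SOCS2, an inhibitor of cytokine and growth hormone signalling, was 1.92-fold higher without reaching the rule.

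Among proteases of the binding proteins, their inhibitors and carriers, 10 of 15 genes were measured and 1 was called. STC1, a secreted inhibitor of PAPPA, read 281 without TGF-β and 1003 with it, a rise of 3.57-fold. Its other probe sets gave 2.31-fold and 1.30-fold. Names of all 3 mark shared targets, so STC1 had no value once such probe sets were left out. STC2, the other inhibitor of PAPPA, read 891 and 489, 1.82-fold lower. PAPPA itself read 2365 and 4087 by its brightest probe set, 1.73-fold higher, and its other 7 kept probe sets differed by at most 1.40-fold. PAPPA2, a related protease, read 76.2 and 150 by its brightest probe set by mean signal, 1.97-fold higher, and 111 and 79.5 by its other kept one, 1.40-fold lower, so its probe sets went opposite ways. It was called higher when arrays were scaled by medians, quantiles or loess. HTRA1, a serine protease that cleaves binding proteins, was 1.45-fold higher.

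Of 10 genes whose proteins share a domain with the IGF-binding proteins, 6 were measured. CCN1 and CCN2, matricellular proteins, rose by 3.57-fold and 9.69-fold. CCN2 was drawn from these same arrays by the study, so it is not independent evidence of a direction for this list. KAZALD1 read 108 in untreated cells and 23.2 with TGF-β, which is at background, so its call rests on a signal at background and the bound is at least 1.91-fold lower. CRIM1, IGFBPL1 and CCN5 differed by less than 1.5-fold. CCN3, CCN4, CCN6 and ESM1 were too dim to be kept.

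By their brightest probe sets, none of the 12 measured genes of the mannose 6-phosphate route, which IGF2R serves, reached 2-fold. M6PR, the smaller receptor of this route, read 2120 in untreated and 2172 in treated cells, and the largest difference between brightest probe sets was that of NAGPA, at 1.43-fold higher. Dimmer probe sets of the GGA adaptors, which sort the receptors at the Golgi, differed more. One of GGA1 read 61.0 and 127, 2.08-fold higher, while its brightest was 1.02-fold lower. One each of GGA2 and GGA3 was 1.96-fold and 1.92-fold lower, against 1.26-fold and 1.21-fold lower by the brightest. The 3 proteins that bind IGF2 mRNA also stayed under 2-fold, with IGF2BP3 at 1.42-fold higher and IGF2BP2 at 1.01-fold.

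**Figure D4:**
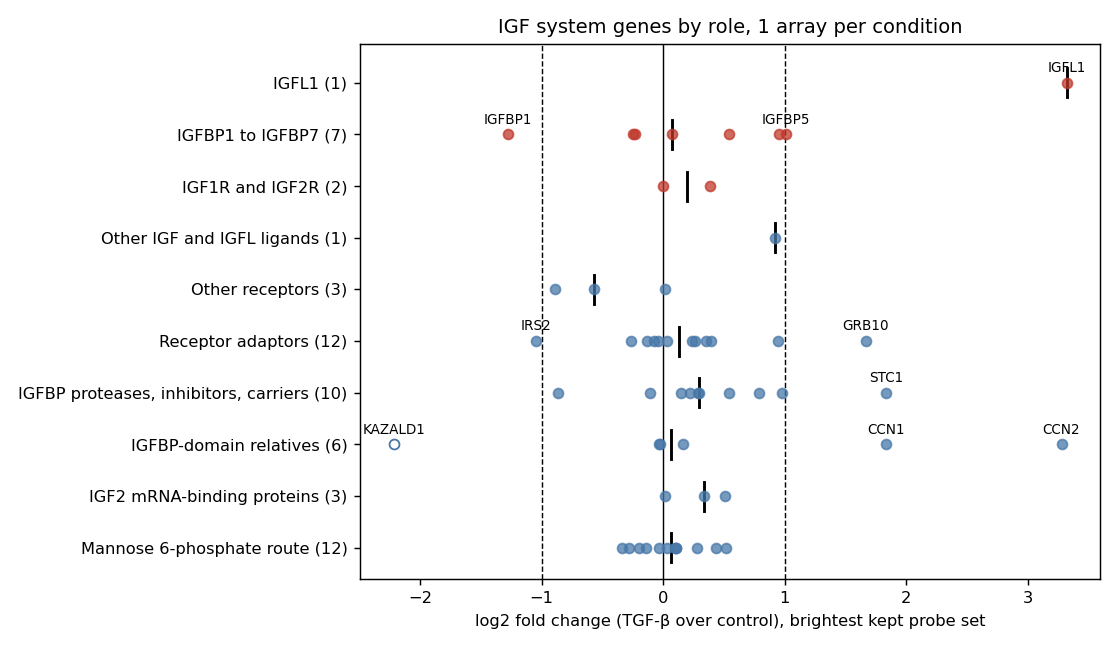
Log2 fold change (TGF-β over control) of the 10 genes (red) and of the other measured IGF system genes (blue) by role, each point 1 gene, with the number of genes in parentheses, the median as a black bar and dashed lines at 2-fold. The open point has a signal at background. Genes past 2-fold are named, and the genes of the mannose 6-phosphate route lie between -0.34 and 0.52.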

How the data were processed

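Signals of 1 control and 1 TGF-β array of A549 cells were used as deposited. The authors made these intensities with MAS5 (version not given in the sources used here), which gives each probe set 1 value on a linear scale. Both arrays shared a trimmed mean of 500.1, so they had been scaled to a common target, and a shift common to all genes cannot be seen. The array holds 54675 probe sets. The platform annotation gave 1 gene symbol to 41091 of the 54613 probe sets other than controls and several to 1801, and it did not list 11721. Genes were counted from the first kind alone, and symbols were updated through RefSeq gene identifiers. The filter on dim signals (mean at or over 48.7) left 27307 probe sets.

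Python 3.11.15 was used, with pandas 2.3.3 and numpy 2.4.6 for the folds, scipy 1.17.1 for the spread, statsmodels 0.14.6 for loess and matplotlib 3.10.9 for the plots. The code that calls genes was tested on simulated data. The 10 genes, the lists of IGF system genes and markers, the promoter motifs and the 2-fold rule were chosen with earlier results of these data known. All 10 genes are named, as are the genes past 2-fold of each list (at most 3 each way) or, where there are none, its most changed gene. Other genes were named after their values had been seen.

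The 13 alternatives were no filter, a filter at a mean of 349 (75 percentile), floors at the 25 percentile, the median and the background, an offset of 50, scaling by medians, quantiles or loess (span 0.3), 2 other ways to represent a gene, leaving out probe sets marked as sharing targets, and 1.5-fold in place of 2-fold.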

Additional observations from a re-analysis of the deposited data

How the results depend on the processing

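The variation between cultures cannot be read from these alternatives. No paired analysis was possible because each group had 1 array. Of 116 alternative values of the 10 genes, 8 moved by more than the spread at their brightness, all of IGFL1, IGFBP3, IGFBP7 or IGF1R, and none changed sign. IGFBP1 was the only one of the 10 called lower under each of the 13 alternatives, and IGFL1 was called higher under each. Most of these could not change either call. Both genes have 1 kept probe set, not marked as sharing targets and above every floor. Only the offset and the scalings could move them, and their log2 fold changes then ran from 2.70 to 3.37 for IGFL1 and from -1.29 to -1.22 for IGFBP1. Many of the 116 values were likewise fixed by construction. IGFL1 passed the stricter filter at a mean of 349 only through its TGF-β signal of 792. Its control signal was 79.3, so its call under that filter adds no support. The 2 called higher (IGFL1 and IGFBP5) became 1 with the stricter filter, the floor at each array's median or 50 added to every signal, each without IGFBP5. By construction, these settings act on dim signals. Without shared-target probe sets 2 were called higher, with IGFBP7 in place of IGFBP5, which then had no value. Of the wider list, the 4 called higher became 5 with PAPPA2 under scaling by medians, quantiles or loess, with GGA1 by the probe set of largest change or with CCN4 without a filter, and 8 were called higher and 4 lower at 1.5-fold. Without shared-target probe sets 3 were called higher, as STC1 then had no value. The 2 called lower (IRS2 and KAZALD1) became 1 with the stricter filter, the background floor, equal medians or the median over probe sets, and 0 without shared-target probe sets, since both genes have only such kept ones. Without a filter they became 3, with HTRA4, whose signals of 35.5 and 2.94 were at background on both arrays. Equal medians and the median over probe sets lost IRS2 by construction. The first shifts all log2 fold changes up alike (the median of all genes from -0.03 to 0.01), and the second averages its 2.06-fold and 1.73-fold differences. Signal over background limits IGFBP5, IGF1 and insulin.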
